A study of Mus musculus with 4 samples.

Results

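Plasminogen activation is the process by which cells turn plasminogen, a circulating zymogen, into plasmin, a protease that dissolves fibrin and cuts matrix proteins at the cell surface. Urokinase, made by Plau, and tissue plasminogen activator, made by Plat, carry out the cut, Plaur makes the receptor that holds urokinase on the membrane, and Serpine2 makes protease nexin-1, a secreted inhibitor of thrombin and of both activators. Thbs1 and Thbs2 make thrombospondins 1 and 2, large secreted glycoproteins that bind the matrix, cell-surface receptors and proteases, and thrombospondin 1 is also known as an activator of latent TGF-beta. Fibroblasts make proteins of all these kinds during wound repair.

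The members are the non-control probes that the array files name Serpine2, Plau, Plaur, Plat, Thbs1 or Thbs2. Each gene had 1 probe, so there were 6 probes of the 39429 on the array, and no probe of another name was matched to the same genes. The 8054 probes without a matched gene symbol could not be checked for this. The RNA came from NIH-3T3:Per2-Luc cells, a mouse embryonic fibroblast line that carries luciferase under the Per2 promoter, so every array shares this reporter. The study asked which transcripts respond to an H2O2 pulse at a dose on the border of cell survival (critical oxidative stress, cOS-pulse) and how they stand later in the circadian cycle. The control culture received 0 mM H2O2 and fresh medium, with 4 h given in its label, and the other cultures were collected 4 h, 20 h or 32 h after 5 mM H2O2 for 10 min. Each of these 4 conditions was measured on 1 array.

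With 1 array per condition there was no replicate and no statistical test. The value after ± is the error that the scanner software gives for the spots, which covers the spot and neither the culture nor the labelling. Signals are on a scaled log2 axis (log2 of the processed signal minus the 75th percentile of the array), ratios are differences on that axis, and "2-fold higher" or "2-fold lower" means that the ratio, or its bound where 1 array did not detect the probe, passed 2-fold. The arrays detected 20762 to 23295 probes, the most at 4 h, and no spot was saturated. Of 14 fibroblast markers, 13 were detected on every array, and Fap was not detected on any. The macrophage and leukocyte markers had 4 of 6 genes detected on every array, with Ptprc, the pan-leukocyte marker, on none, and their summed level ran from 3.67 to 5.09 on the log2 axis with its highest value at 4 h, as did the sums of the endothelial (2.13), epithelial (0.54) and platelet (-0.83) markers. The ratios over all measured probes had a median of 0.17 at 4 h, -0.0034 at 20 h and -0.0062 at 32 h, and the 4 h median was between -0.23 and 0.047 under 5 other scalings. At 4 h 57.8% of the probes past 2-fold were higher, against 25.6% to 46.7% under those scalings, and at 20 h and 32 h 29.0% and 44.4% were higher, against 65.4% and 62.7% with no scaling. The 3 comparisons with the control share its 1 array, whose label gives 4 h. In the 20 h and 32 h ratios, the pulse and the later hour of collection cannot be told apart. In a bulk sample, fewer cells of a type and less RNA per cell cannot be told apart.

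The probes are shown because each gene rests on a single one. They are 60 bases long and are given as the array files list them, with their mm9 positions. The Serpine2 probe (chr1:79793476-79796093) and the Thbs2 probe (chr17:14804526-14805789) cover 2618 and 1264 genomic bases, so both cross a splice junction and lie in exons. The probes of Plau (chr14:21662242-21662301), Plaur (chr7:25260569-25260628), Plat (chr8:23892531-23892590) and Thbs1 (chr2:117952585-117952644) each lie in 1 uninterrupted stretch. Capitals in the Plat probe mark the first stop codon of its forward reading frame 1, at base 46, and for Plau, Plaur and Thbs1 the first 30 bases are given.
Serpine2: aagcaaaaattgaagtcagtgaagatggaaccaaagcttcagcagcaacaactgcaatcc
Thbs2: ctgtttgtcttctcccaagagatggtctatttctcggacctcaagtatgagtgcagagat
Plat: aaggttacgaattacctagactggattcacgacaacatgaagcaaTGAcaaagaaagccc
Plau: gtgtatttctgtatctaactgcaagtctag
Plaur: ccctcgtgttgtcttctttggacctcagtt
Thbs1: gcctgtagagttagtatttctggtttttat

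At 4 h post cOS-pulse, Plaur exceeded the control by at least 2-fold and Thbs1 lay at least 2-fold under it. Of all 23813 probes with a ratio at 4 h, 11.2% were at least 2-fold higher and 8.18% at least 2-fold lower, so 1 of 6 members in each direction lies near the background. At 20 h no member was at least 2-fold higher (1.37% of 21990 probes were), and 4 of 6 members, Plau, Plaur, Plat and Thbs1, were at least 2-fold lower, where 3.35% of the probes were. This count was 2 of 6 with no scaling and with spike-in scaling, and the lower probes numbered 737 as reported, 397 with no scaling and 501 with spike-in scaling. At 32 h no member was at least 2-fold higher (2.07% of 21843 probes were), and Plau and Thbs1 were at least 2-fold lower, where 2.59% of the probes were. The median ratio of the members was 0.22 over 6 measured members at 4 h, -1.10 over 6 at 20 h and -0.94 over 5 at 32 h, beside the medians over all probes given above.

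**Figure D1:**
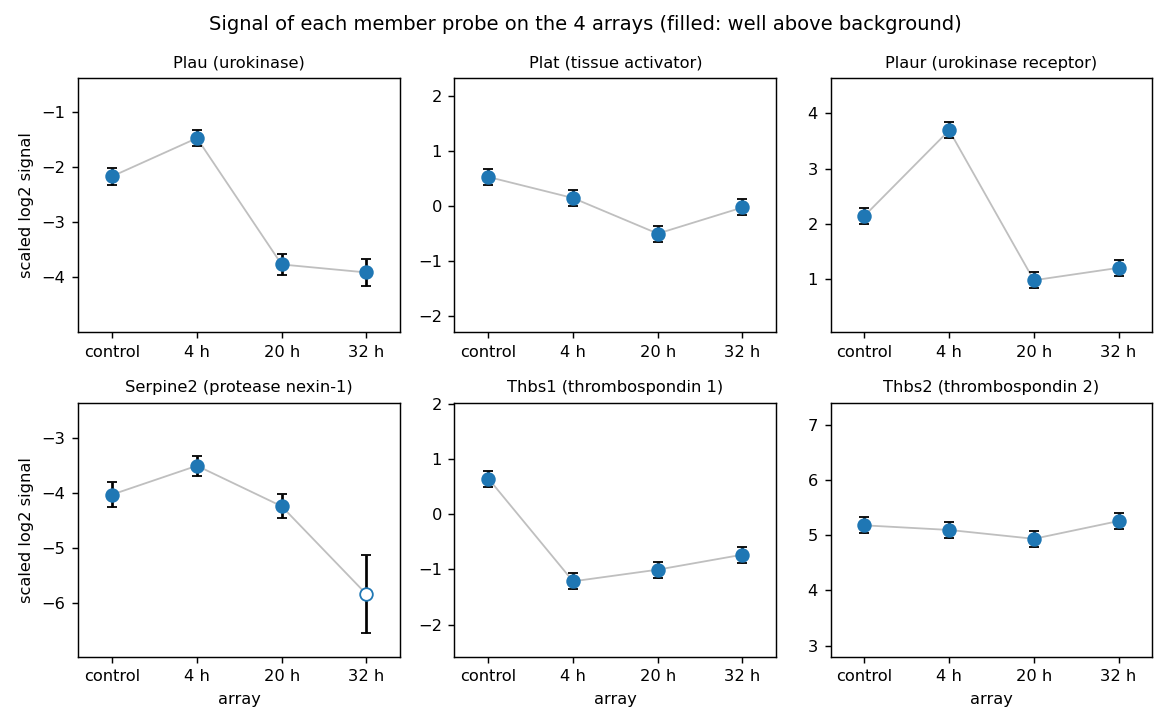
Scaled log2 signal (y axis) of the 6 member probes on the control array and the arrays 4 h, 20 h and 32 h after the cOS-pulse (x axis), with 1 array per point, bars for the scanner's spot error and an open point where the signal was not well above background. The y axes all span the same number of log2 units, and Plaur has its peak at 4 h, Thbs1 its highest value in the control, and Thbs2 a range of 0.32 over the 4 arrays.

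Plau, the urokinase gene, gave a scaled log2 signal of -2.17 in the control, -1.48 at 4 h, -3.77 at 20 h and -3.91 at 32 h. The corresponding processed signals were 247, 328, 102 and 83.3 intensity units, so the probe was dim at the later times but well above background on all 4 arrays. The 4 h array was the highest, the control came next, and the 20 h and 32 h arrays were lowest. The ratio over the control was 0.69 ± 0.21 at 4 h, which is 1.62-fold higher and below the 2-fold threshold. At 20 h it was -1.60 ± 0.25, or 3.03-fold lower, and 102 of 20448 measured probes had a lower ratio. At 32 h it was -1.74 ± 0.29, or 3.35-fold lower, and 54 of 19969 measured probes were lower. The 20 h and 32 h levels differed by 0.15 ± 0.31, less than the error. With another background correction (normexp), which adds an offset to dim spots, the Plau ratios were -1.17 at 20 h and -1.09 at 32 h, both still past 2-fold.

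Plaur, whose product anchors urokinase to the membrane, gave processed signals of 4897 in the control, 11806 at 4 h, 2743 at 20 h and 2882 at 32 h. On the scaled log2 axis these were 2.14, 3.69, 0.98 and 1.20. The receptor probe thus had its single high value at 4 h and lay below the control on both later arrays. The ratio over the control was 1.55 ± 0.20 at 4 h, or 2.93-fold higher, and 540 of 20392 measured probes had a higher ratio. At 20 h the ratio was -1.17 ± 0.20, or 2.25-fold lower, with 278 measured probes lower still. At 32 h it was -0.94 ± 0.20, or 1.92-fold lower and short of the threshold, with 352 probes lower. The order from high to low was 4 h, control, 32 h and 20 h, and the difference of 20 h over 32 h was -0.22 ± 0.20, close to the size of the error. Under 5 other scalings the 4 h ratio was 1.15 to 1.43 and passed 2-fold in each, and the 20 h ratio was -1.21 to -0.84 and passed in 3 of 5. The summed level of the macrophage and leukocyte markers, of which Ptprc was undetected, was also highest at 4 h (5.09) and lower at 20 h and 32 h (3.67 and 3.74) than in the control (4.49). That sum was mostly 1 probe, Itgam, at 4.35 in the control with ratios of 0.57, -0.93 and -0.88 at 4 h, 20 h and 32 h. The other detected markers were Csf1r (0.28, -0.26 and -0.048), Cd68 (2.08, 0.20 and 0.27) and Cd3e (0.25, 0.083 and 0.11). The part of these markers in the Plau and Plaur values was not tested.

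Measured from 4 h to 20 h, both Plau and Plaur were at least 2-fold lower, and no other member passed this threshold. Plau was 4.89-fold lower at 20 h than at 4 h (-2.29 ± 0.24), with 240 of 20852 measured probes lower. Plaur was 6.58-fold lower (-2.72 ± 0.20), with 139 lower. These 2 of 6 members stand against a background of 14.9% of 24147 probes that were at least 2-fold lower at 20 h than at 4 h. Measured from 4 h to 32 h, 3 of 6 members were at least 2-fold lower, against 13.8% of 23769 probes. These were Plau (5.41-fold), Plaur (5.63-fold) and Serpine2, for which the bound was at least 2.33-fold. Neither comparison uses the control array, and both use the array at 4 h. The Serpine2 bound from 4 h to 32 h, and so the count of 3, depended on the scaling. With spike-in scaling Serpine2 had a ratio over the control of 0.12 at 4 h and a bound of -0.54 at 32 h, less than 2-fold apart.

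Plat is the gene of tissue plasminogen activator. Its scaled log2 signals were 0.52 in the control, 0.14 at 4 h, -0.50 at 20 h and -0.028 at 32 h (processed signals 1594, 1006, 984 and 1229). The control array was the highest and the 20 h array the lowest. The ratio over the control was -0.38 ± 0.20 at 4 h, -1.03 ± 0.20 at 20 h and -0.55 ± 0.20 at 32 h. The 20 h value, 2.04-fold lower, sat at the threshold: it passed 2-fold under 2 of 5 other scalings, with a range of -1.04 to -0.70. The difference of 32 h over 4 h was -0.17 ± 0.20, less than the error, and that of 20 h over 32 h was -0.47 ± 0.21. The 4 h ratio was -0.79 to -0.37 over the 5 other scalings. With spike-in scaling it was -0.79, below the 32 h ratio of -0.40, so the order of 4 h and 32 h depended on the scaling.

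Serpine2, which encodes the inhibitor protease nexin-1, was dim. Its processed signals were 67.7 in the control, 79.9 at 4 h and 73.5 at 20 h, with spot errors of 16.2%, 12.6% and 15.3%. At 32 h the signal was 21.9 and not well above background. On the scaled log2 axis the 4 arrays read -4.03, -3.51, -4.25 and -5.84, with the first 3 between 0.73 and 1.43 above the lowest detected signal of their array. The ratio over the control was 0.52 ± 0.30 at 4 h (1.44-fold higher) and -0.21 ± 0.32 at 20 h. The 4 h ratio was 0.12 to 0.40 over the 5 other scalings, with the lower end inside the error. The 20 h ratio was within the error and positive, at 0.12, with no scaling. At 32 h the bound put Serpine2 at least 1.62-fold lower, which does not reach the threshold. If the undetected signal is used as it stands, that ratio is -1.81.

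Thbs1, the gene of thrombospondin 1, was high in the control and low on all 3 arrays after the pulse. Its processed signal was 1735 in the control, 392 at 4 h, 695 at 20 h and 754 at 32 h. The scaled log2 signals were 0.65, -1.22, -1.01 and -0.73. No array after the pulse came within 2-fold of the control. The ratio was -1.86 ± 0.21 at 4 h, or 3.64-fold lower, and 253 of 20392 measured probes were lower. It was -1.65 ± 0.21 at 20 h, or 3.14-fold lower, with 90 of 20448 probes lower. It was -1.38 ± 0.21 at 32 h, or 2.60-fold lower, with 117 of 19969 lower. The difference of 20 h over 4 h was 0.21 ± 0.21 and that of 20 h over 32 h was -0.27 ± 0.21. Neighbouring arrays after the pulse thus differed by about the size of the error, while 32 h over 4 h was 0.48 ± 0.21, beyond it. With spike-in scaling the ratios over the control were -2.27, -1.45 and -1.22 at 4 h, 20 h and 32 h. The step from 4 h to the later arrays thus depended on the scaling. Thbs1 was past 2-fold at each time under all 5 other scalings, with -2.27 to -1.90 at 4 h, -1.67 to -1.32 at 20 h and -1.39 to -1.20 at 32 h.

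Thbs2, the gene of the related thrombospondin 2, differed little between arrays, with processed signals of 40154 in the control, 31183 at 4 h, 42662 at 20 h and 47949 at 32 h. Scaled, these were 5.18, 5.10, 4.94 and 5.26. The ratio over the control was -0.084 ± 0.20 at 4 h, -0.24 ± 0.20 at 20 h and 0.078 ± 0.20 at 32 h. The 4 h and 32 h ratios lay within the error, and the 20 h ratio just beyond it. The 4 h ratio was -0.49 to -0.21 over the 5 other scalings, and the 20 h ratio turned positive, at 0.087, with no scaling. Thbs1 was past 2-fold and Thbs2 within it at all 3 times, and the difference between the genes was not tested with 1 array per condition.

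**Figure D2:**
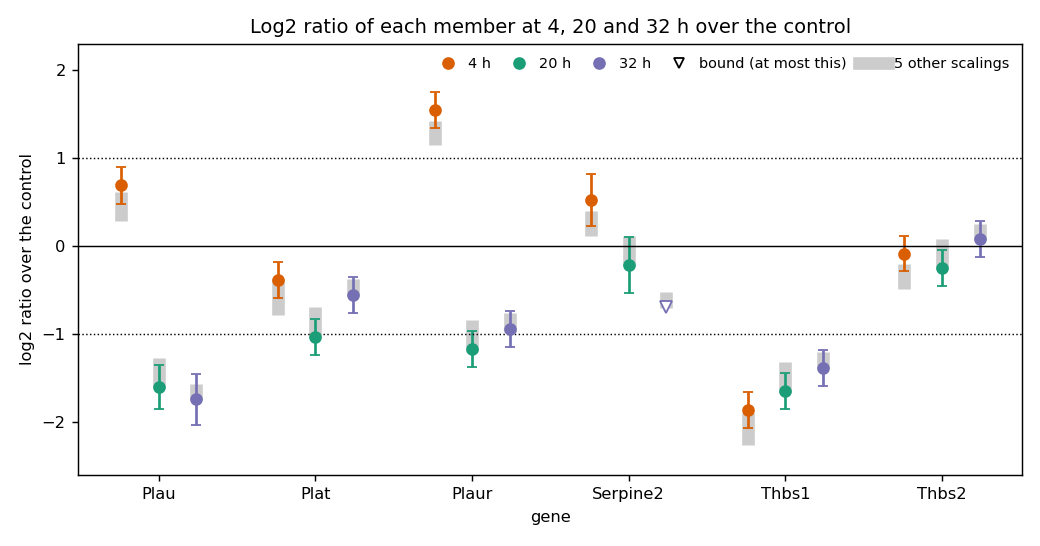
Log2 ratio over the control (y axis) of the 6 genes (x axis) at 4 h, 20 h and 32 h, with bars for the propagated spot error, an open triangle for the bound of Serpine2 at 32 h, gray bands for the range over 5 other scalings and dotted lines at 2-fold. Thbs1 lies below the lower line at all 3 times, Plau at 20 h and 32 h, and Plaur is above the upper line at 4 h and below the lower one at 20 h.

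**Figure D3:**
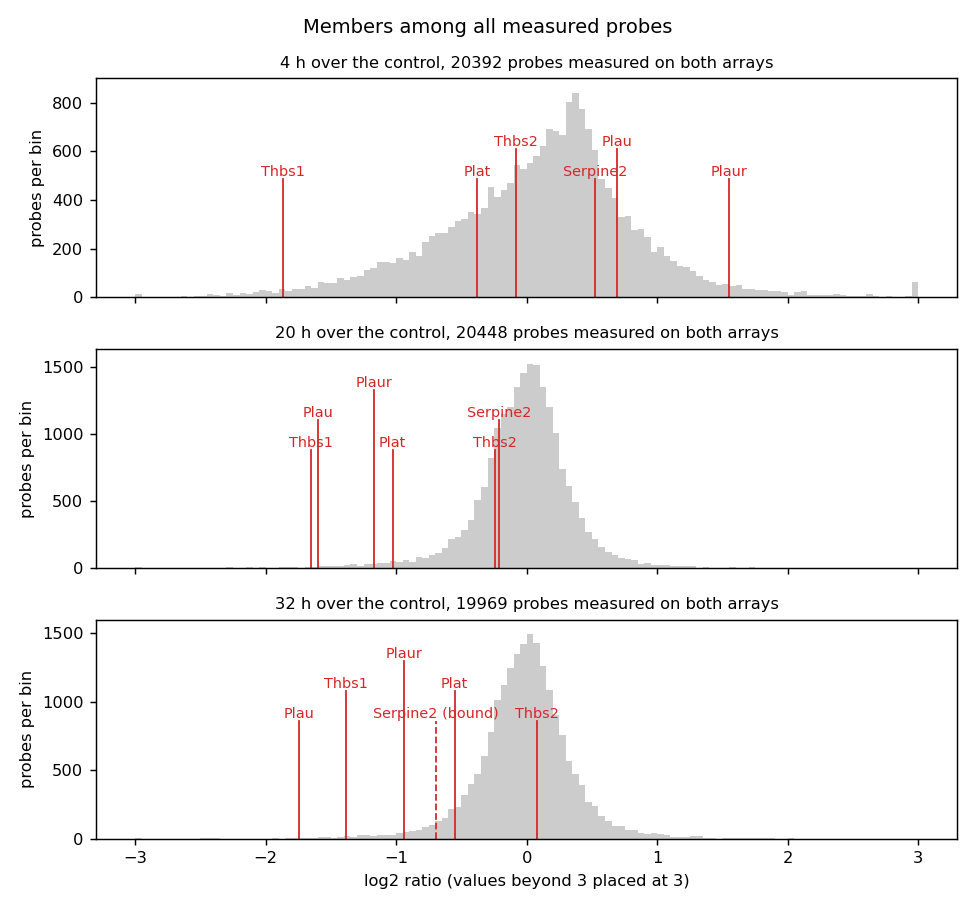
Histograms of the log2 ratio over the control (x axis) for all probes measured on both arrays (y axis, probes per bin), with the members as red lines and the bound of Serpine2 at 32 h dashed. The 4 h distribution is wider (robust SD 0.61) than those at 20 h and 32 h (0.28 each), so the same ratio lies further out at the later times.

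The width of the background differed between times. The robust SD of the ratio over all measured probes was 0.61 at 4 h and 0.28 at 20 h and at 32 h. The Plaur ratio of 1.55 at 4 h had 540 probes above it, whereas the smaller Plaur ratio of -1.17 at 20 h had 278 below it. The scatter between spots of 1 array was read from the probes printed 10 times, of which 227 to 228 were detected in each comparison. For the 30 such probes nearest in level, the median SD of a single-spot log2 ratio was 0.037 at the level of Plaur and 0.054 at most at the level of Thbs1. For Thbs2 it was 0.038 at most, from probes up to 2.34 log2 units away in level. It was 0.17 at most at the level of Plau. For Serpine2 it was 0.19 to 0.31, from probes up to 2.35 log2 units away in level. The measured ratios past 2-fold of Plau, Plaur, Plat and Thbs1 were larger than this scatter, which does not include the spread between cultures.

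The promoter of Plaur is given because its probe had the largest ratio above the control among the members at 4 h, and because AP-1, a dimer of Fos and Jun proteins, is known to act on the urokinase receptor gene in human cells. RefSeq sequences (GRCm38.p6) covered 3 of 6 members, Serpine2, Plaur and Thbs2. The 250 bases before each start were searched on both strands for the letters of 6 motifs. The Plaur window at chr7:24462233-24462482, plus strand, held 1 AP-1 match (TGACTCA), in capitals, with its first base 69 bases before the start.
Plaur promoter: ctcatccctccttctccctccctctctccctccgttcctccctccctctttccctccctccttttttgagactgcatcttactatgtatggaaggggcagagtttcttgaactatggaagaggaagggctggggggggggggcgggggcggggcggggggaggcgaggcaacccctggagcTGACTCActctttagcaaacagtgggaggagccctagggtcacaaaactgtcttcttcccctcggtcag

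The AP-1 letters occurred in 4.46% of 32851 windows of this length, and neither Serpine2 nor Thbs2 held them. The GC box letters, GGGCGG, occurred in 32.7% of windows, with 3 matches in Plaur, 6 in Serpine2 and 0 in Thbs2. Thbs2 held 1 match to the TATA box, TATAAA, which 12.4% of windows hold. None of these 3 members held the E-box, CACGTG, which occurred in 6.02% of windows. None held the core of the antioxidant response element, TGACNNNGC, found in 10.2% of windows. None held the TEAD site, GGAATG, found in 12.6%. Matches to different motifs may overlap. A match of letters is a description of the window and was not tied to the ratios.

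Of 19 other genes of the plasminogen system analysed here, 17 were detected on at least 1 array, and Serpina5 and Vtn were not. At 4 h 2 of 16 with a ratio were at least 2-fold higher and 0 lower, against 11.2% and 8.18% of all probes. At 20 h 0 of 14 and at 32 h 0 of 15 passed 2-fold in either direction. Among all probes 1.37% were higher and 3.35% lower at 20 h, and 2.07% and 2.59% at 32 h. The median ratio was 0.017 over 14 measured genes at 4 h, -0.19 over 14 at 20 h and -0.040 over 13 at 32 h. The 4 h median was negative under all 5 other scalings (-0.39 to -0.087), and the 20 h and 32 h medians were each positive in 2 of 5.

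Serpinb2, plasminogen activator inhibitor 2, was 11.2-fold higher at 4 h (3.49 ± 0.22) and within 2-fold later (0.35 at 20 h and 0.94 ± 0.23 at 32 h, the latter past 2-fold in 2 of 5 other scalings). Serpinf2, the plasmin inhibitor alpha 2-antiplasmin, was detected only at 4 h, where it was at least 2.81-fold higher. Plg itself, the substrate, was detected only at 4 h, where the bound was at least 1.40-fold higher. Anxa2, a plasminogen receptor, had ratios of -0.57, -0.35 and -0.47 (± 0.20 each), and Lrp1, which clears activator and inhibitor complexes, had -0.70, -0.41 and 0.033 for the brightest of its 3 probes. The 4 h ratios of its 2 detected probes were -0.70 and 0.057, and the former passed 2-fold in 2 of 5 other scalings.

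Of 24 genes of the thrombospondin family, its receptors and latent TGF-beta, 20 were detected, and Thbs4, Cd36, Itga3 and Itga4 were not. Of the genes with a ratio at 4 h, 1 of 20 was at least 2-fold higher and 1 lower. At 20 h 0 and 1 of 19 were, and at 32 h 1 and 0 of 19. The shares of all probes were 11.2% and 8.18% at 4 h, 1.37% and 3.35% at 20 h, and 2.07% and 2.59% at 32 h. The median ratio was -0.0063, -0.047 and 0.014 over 19 measured genes at 4 h, 20 h and 32 h, and the 20 h median was positive in 3 of 5 other scalings. Comp, thrombospondin 5, was detected only at 4 h, at least 3.98-fold higher. Thbs3, the other detected family member, had ratios of 0.16, -0.029 and 0.26. Cd47, the receptor of the thrombospondin C-terminus, had -0.052, 0.077 and 0.067. Tgfb3 was 4.08-fold lower at 4 h (-2.03 ± 0.065 over repeated spots) and within 2-fold later (-0.68 and -0.43). Tgfb2 was 2.05-fold lower at 20 h (-1.04 ± 0.21), a value that passed 2-fold in 2 of 5 other scalings, and at 4 h its probes read 0.070 and -0.94. Scarb1, a scavenger receptor of the Cd36 family, had 0.95 at 20 h, past 2-fold in 3 of 5 other scalings, and was 2.20-fold higher at 32 h (1.14 ± 0.20), while its 4 h ratio of 0.049 was negative in all 5 other scalings.

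**Figure D4:**
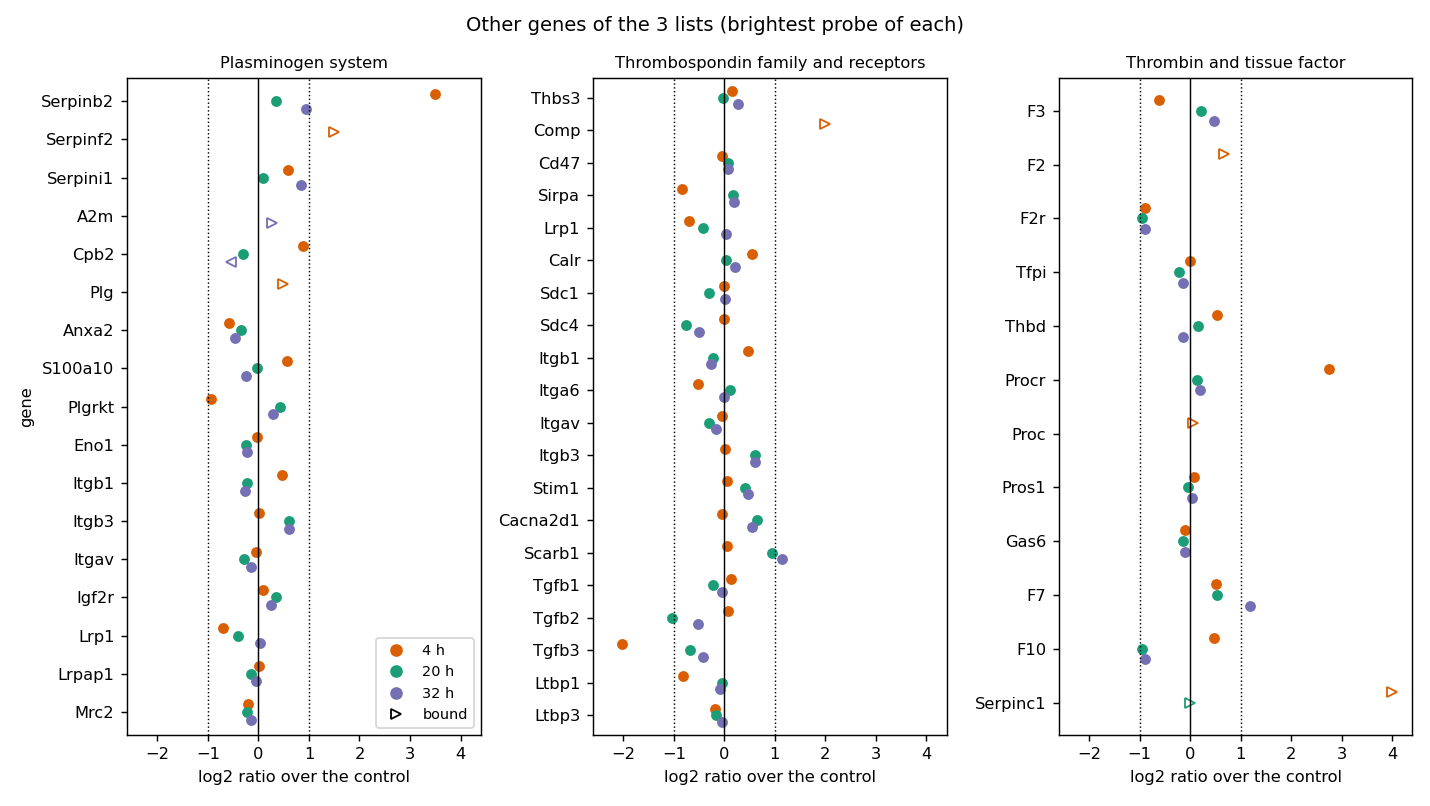
Log2 ratio over the control (x axis) of the other genes (y axis) of the plasminogen system, of the thrombospondin family with its receptors, and of thrombin and tissue factor, at 4 h, 20 h and 32 h for the brightest probe, with open triangles for bounds and dotted lines at 2-fold. Serpinb2 at 4 h stands furthest right in the left panel, Tgfb3 at 4 h furthest left in the middle panel, and most receptors stay within the lines.

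The genes with the array pattern nearest to each member were found by the distance between log2 signals of the 4 arrays, each centred on its probe's mean, over named probes detected on all 4 arrays whose range was at least 50% of that of the member. For Plaur these were Cd200, Hk2 and Inhba, at distances of 0.18, 0.18 and 0.27 among 2318 candidate probes. For Plau they were Fmr1nb, Sox9 and BC061237 (0.29, 0.30 and 0.32 among 3028), and for Thbs1 they were Cx3cl1, Vdr and 9430015G10Rik (0.23, 0.26 and 0.28 among 5154). For Plat they were Vmn2r13, Dynll1 and Caskin2 (0.049, 0.11 and 0.12 among 10642), and for Thbs2 Spata33, Cyp2j13 and Ly6g (0.015, 0.027 and 0.035 among 16039). For Serpine2, whose undetected 32 h signal was taken as read, they included Gm10375 and Kctd4 at 0.78 and 0.79 among 3348. With 4 points per pattern, a short distance is a description of these arrays.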

How the data were processed

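RNA of the control and of 4 h, 20 h and 32 h post cOS-pulse was hybridised to 4 one-color Agilent Mouse GE 4x44K v2 arrays on 1 slide, whose headers name the mm9 annotation. Per the file headers, the spot intensities that the authors deposited were made with Feature Extraction 10.7.3.1, which removed background and spatial trend and gave dim spots surrogate values. A second deposited table held these intensities after division by a constant for each array, a relation checked over 44397 spots. Nothing in the sources says whether a culture was repeated.

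From the deposited intensities, log2 processed signals were averaged over unflagged spots per probe (125 to 161 spots per array were flagged), and each array was centred on its 75th percentile. Detection required the scanner's well-above-background flag in 50% or more of a probe's spots. Where 1 array alone detected a probe, its signal was set against the dim spot or, if higher, the lowest detected signal on the dim array. Arrays carry no count of reads, and their number limits the precision. The 6 members and the gene lists were chosen with earlier results of these data known. Other genes were named when the brightest probe of a listed gene was at least 2-fold from the control, up to 6 per list, with Anxa2, Lrp1 and Cd47 always named and, per member, the 3 nearest patterns. Undetected genes and markers were named from their lists, and Plg, Thbs3, F3 and F2r were named after their values were seen. Some listed genes are not reported here and were left out of the list counts and medians. Symbols followed RefSeq by accession for 27234 probes, by symbol for 3576 and by synonym for 565, and 8054 were left without a symbol. Python 3.11.15, numpy 2.4.6, pandas 2.3.3, matplotlib 3.10.9, R 4.3.3 and limma 3.58.1 (normexp with an offset of 50) were used, and the steps were tested on simulated data. Alternatives changed the scaling (including 8 spike-in probes), background correction, detection rule, flags, value table and fold threshold. SAM, which the methods name, was not run with 1 array per condition.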

Additional observations from a re-analysis of the deposited data

Results flagged for a closer look

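Plau lay on opposite sides of the control at different times: its log2 ratio was 0.69 at 4 h, -1.60 at 20 h and -1.74 at 32 h. Plaur did the same, with 1.55 at 4 h, -1.17 at 20 h and -0.94 at 32 h. Both genes kept these signs under the 5 other scalings, where the 4 h ratio of Plau was 0.29 to 0.62 and stayed within 2-fold. The difference between times was not tested against the control, since each condition was 1 array. To be counted here, ratios of opposite sign each had to exceed a set multiple of their error. The 4 h ratio of Plau did so as reported (0.69 ± 0.21) but would not with spike-in scaling (0.29). Serpine2 had a positive ratio at 4 h and a negative bound at 32 h, and was not counted. Its bound has no error to be set against, and its 20 h ratio was within the error.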

How the results depend on the processing

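The number of members at least 2-fold higher at 4 h was 1, against 2 at a threshold of 1.5-fold and 0 at 3-fold. The number at least 2-fold lower at 20 h was 4, against 2 at a 3-fold threshold, with no scaling and with spike-in scaling (8 probes). The number at least 2-fold lower at 32 h was 2, against 4 at 1.5-fold and 1 at 3-fold. The other 77 counts under alternatives were within 1.5 times of the reported ones. Spike-in scaling without 1 probe that stood apart was chosen after seeing the data. Of the members' single ratios, 178 moved by less than their spot error and 37 by more, mostly with the scaling at 4 h. In these counts the Serpine2 bound at 32 h, which has no spot error, was judged against a fixed limit instead. The signs of Serpine2 (0.12) and Thbs2 (0.087) at 20 h were positive with no scaling. Over the scalings, the median of all measured probes at 4 h lay between -0.23 (spike-in) and 0.17 (reported), and it was 0.23 with a looser detection flag. With 1 array per condition no replicate could be left out and no paired analysis was possible because no group had a second array. Signal over background limits Serpine2, and Plau at the later times.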

Other observations

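Genes of thrombin, tissue factor and their regulators were also read, since protease nexin-1 acts on thrombin. Of 20 genes, 12 were detected on at least 1 array. At 4 h 2 of 12 with a ratio were at least 2-fold higher and 0 lower. At 20 h 0 and 0 of 10 were, and at 32 h 1 and 0 of 9. The shares of all probes were 11.2% and 8.18% at 4 h, 1.37% and 3.35% at 20 h, and 2.07% and 2.59% at 32 h. Procr, the endothelial protein C receptor, was 6.75-fold higher at 4 h (2.76 ± 0.20) and had ratios of 0.13 and 0.19 later. Serpinc1, antithrombin, was at least 16.0-fold higher at 4 h and was not detected in the control. F7, coagulation factor VII, had 0.51 ± 0.22 at 4 h for the brighter of its 2 probes, which was 2.28-fold higher at 32 h (1.19 ± 0.22). At 4 h its other probe read -0.051, and the brighter one was 0.11 to 0.39 over the 5 other scalings. F3, tissue factor, had -0.63, 0.22 and 0.47, and F2r, the main thrombin receptor, had -0.88, -0.94 and -0.89. The median ratio was 0.084 at 4 h, -0.049 at 20 h and -0.10 at 32 h over 9 measured genes, and it changed sign in all 5, 3 and 2 of the other scalings. The 8 genes not detected on any array included F2rl1, F2rl2, F5 and F8. Platelet and megakaryocyte markers were detected for 1 to 3 of 5 genes per array, with Gp9 and Gp1ba on none.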
